A study of Mus musculus with 4 samples.

Results

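Deep beta cells of control islets were the cell barcodes of the control mouse islet pools that carried over 8000 UMIs (unique molecular identifiers, 1 per captured RNA molecule) and an insulin signature. They were picked by measured values: Ins1 and Ins2 together made up at least 15% of a barcode's UMIs, mitochondrially encoded genes made up under 20%, and the hormone genes Gcg, Sst and Ppy each made up under 0.5%. The rule found 504 barcodes in control 1 and 510 in control 2, which is 1014 of the 6165 barcodes of the control pools and of the 11114 barcodes of the series. The levels of those hormone and mitochondrial genes set the membership, so they are described here and left out of the tests. The comparison of female with male cells is the exception, as these genes stayed in that test.

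The series holds 4 droplet libraries of dissociated pancreatic islets from 2-month-old mice: 2 of Atf4 mutant islets (Atf4F/F; Ins1Cre, in which the Cre recombinase acts in insulin-expressing cells) and 2 of control islets (Atf4F/F). All 4 pools carry the floxed Atf4 alleles, and the controls lack Cre. The design text gives 2 males and 2 females per pool, while the protocol gives 3 to 4 mice, so each library is 1 pool of several animals. The protocol also states that tdT+ and tdT- beta cells shared each library and that 10% human K562 cells were added. The same rule found 385 barcodes in Atf4 mutant 1 and 447 in Atf4 mutant 2. Pools are the replicates throughout, and cells of 1 pool are not. With 2 pools a group, p-values of mutant against control measure the spread between pools and not between mice. Where cell sets of the same pools are compared, p-values measure how the difference varied between the pools. Those fits left 1 residual degree of freedom and lean on spread borrowed across genes. Their prior degrees of freedom were 28.8 for female against male cells and 117 for beta against alpha cells.

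Beta cells secrete insulin when glucose enters through a glucose transporter and is metabolised. Their heavy secretory load keeps the endoplasmic reticulum (ER) chaperones busy. Atf4 is a transcription factor translated under the integrated stress response, and it drives genes of amino acid supply and stress adaptation. Immediate early genes such as Fos and Egr1 are switched on within minutes of a stimulus. Metallothioneins bind zinc and other metals, heat shock proteins refold damaged proteins, and neuropeptides such as Npy are made by subsets of endocrine cells.

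The genes whose levels differed most from cell to cell included a pair of neighbouring metallothionein genes, a pair of near-identical heat shock genes and the immediate early gene Fos. Their upstream sequences are given because the members of each pair also varied together across cells. Each is the 150 bases before the gene's start in RefSeq (build GRCm38.p6), read along the gene's own strand, and capitals mark the motif letters on either strand. For the metallothionein genes, Mt1 at chr8:94178939-94179088 (plus strand) and Mt2 at chr8:94172468-94172617 (plus strand), the motif is the metal response element core TGCACNC or TGCGCNC. For the heat shock genes, Hspa1a at chr17:34972157-34972306 and Hspa1b at chr17:34959239-34959388 (both minus strand), it is a pair of heat shock element units, GAANNTTC or TTCNNGAA. For Fos at chr12:85473740-85473889 (plus strand) it is the cyclic AMP response element core TGACGT.
Mt1: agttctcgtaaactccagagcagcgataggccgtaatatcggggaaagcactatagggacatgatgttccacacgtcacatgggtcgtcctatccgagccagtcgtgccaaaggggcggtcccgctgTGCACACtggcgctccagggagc
Mt2: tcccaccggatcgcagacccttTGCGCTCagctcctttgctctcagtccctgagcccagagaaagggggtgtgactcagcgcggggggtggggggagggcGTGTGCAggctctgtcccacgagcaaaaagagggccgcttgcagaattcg
Hspa1a: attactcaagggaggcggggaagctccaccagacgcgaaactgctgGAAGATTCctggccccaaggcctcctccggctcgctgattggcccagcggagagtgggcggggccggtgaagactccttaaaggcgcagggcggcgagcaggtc
Hspa1b: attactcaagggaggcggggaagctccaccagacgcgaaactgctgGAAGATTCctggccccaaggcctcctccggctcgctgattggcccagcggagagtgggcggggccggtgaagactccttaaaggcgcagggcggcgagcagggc
Fos: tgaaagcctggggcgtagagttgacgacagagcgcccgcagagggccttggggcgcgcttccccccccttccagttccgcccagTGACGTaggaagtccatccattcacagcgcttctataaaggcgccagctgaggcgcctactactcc
The metallothionein motif began at base -23 before the start of Mt1 and at bases -128 and -50 before that of Mt2. The heat shock motif began at base -104 in both heat shock genes, and the Fos motif at base -66. Of the 32851 RefSeq mouse promoters cut to the same length, 14.7% held the metallothionein motif, 7.73% the heat shock motif and 5.15% the Fos motif. These matches describe the letters and are not evidence of binding. The windows of Hspa1a and Hspa1b were identical at 149 of 150 bases, and reads of the pair can be split between them in counting, so their separate levels are uncertain. The annotated starts of Mt1 and Mt2 lie 6.42 kb apart, and those of Hspa1a and Hspa1b 12.9 kb apart.

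The median deep beta cell held 13914 UMIs and 3461 genes in control 1, and 15386 UMIs and 3796.5 genes in control 2. The mitochondrial share had a median of 3.21% in control 1 and 2.00% in control 2, and the insulin share of 35.8% and 34.9%. Just inside the depth limit, at 8000 to 9000 UMIs, lay 56 and 34 cells, and just outside it, at 7000 to 8000 UMIs, lay 63 and 41 barcodes with otherwise matching values. Between 15 and 20% insulin lay 15 and 13 cells, and between 10 and 15% lay 1 and 2. A highest other hormone of 0.25 to 0.5% was seen in 5 and 14 cells inside the rule, and one of 0.5 to 1% in 11 and 24 outside it. The insulin share was lower in deeper cells (Spearman rho -0.79 in control 1 and -0.83 in control 2, over the cells of each pool). Ins2 counts reached at most 4078 per cell in both pools, just under the 4096 sequences that a 6-base UMI can take, and lay above the middle of that range in 98.4 and 98.0% of cells. Corrected for repeated use of the same sequence, a step that takes this UMI length as given, the insulin share had medians of 49.3 and 51.0% and rho with the depth of -0.11 and -0.12. Levels below are mean UMIs per cell after thinning each cell to 8000 UMIs, and results along the gene lists and correlations between cells are also given after thinning to 4000 UMIs outside Ins1 and Ins2 (499 and 507 cells). The control libraries shared 82 barcode sequences, 5 of them among deep beta cells, and 83 deep beta barcodes of the controls occurred in some other library. RNA of both sexes (Xist together with Y-linked RNA) was found in 36 and 38 cells.

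The cells carried the RNA of mature beta cells. Iapp, which encodes the amyloid peptide secreted with insulin, averaged 460.2 UMIs in control 1 and 477.6 in control 2. Ucn3, a peptide that marks mature beta cells, averaged 9.11 and 10.4 UMIs and was found in 99.4 and 99.8% of cells. G6pc2, the islet glucose-6-phosphatase subunit, averaged 7.89 and 9.38 UMIs, and Slc2a2, the glucose transporter GLUT2, 5.80 and 5.87. Nkx6-1, a beta cell transcription factor, averaged 2.15 and 2.75 UMIs. Mafa, the remaining marker of the label, had 0 UMIs in both control pools, and whether its RNA was counted at all is not given in the sources used here. Outside Ins1 and Ins2, which picked the cells, 5 of the 6 markers of the label were detected. In alpha barcodes over 8000 UMIs of the same libraries, thinned alike, Ucn3 was found in 6.90% of 29 and 8.51% of 47 cells. Glucagon RNA (Gcg) was found in 79.96 and 84.51% of deep beta cells at 2.11 and 2.91 UMIs per cell, against 1458 and 1513 UMIs in the alpha barcodes.

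Most genes varied among these cells little more than counting error. For 1866 genes outside the rule with a mean of at least 0.5 UMI in both pools, the variance across cells was divided by the mean and then by the median of that ratio over the 100 genes nearest in mean. A gene is called unequal here where this relative variance passed 1.5 in both control pools, which 39 genes did (2.09% of those measured). The peptide Npy had relative variances of 11.3 and 10.6, Iapp of 12.1 and 10.2, Pyy of 15.2 and 5.54, and Chga, the granule protein chromogranin A, of 5.25 and 3.76. The most abundant genes shared the same comparison genes: Iapp, Chga and Scg2 were each divided by 1.657 in control 1 and 1.756 in control 2. Mt1, at 7.05 UMIs in control 2, was also divided by 1.756 there. Iapp, at 460.2 and 477.6 UMIs, was thus set against far less abundant genes, and the part of abundance in its value was not tested. Nnat, an imprinted gene for a membrane proteolipid of the ER, reached 3.79 and 4.04. Next came the heat shock genes Hspa1b at 2.94 and 2.96 and Hspa1a at 2.72 and 2.46, the metallothionein genes Mt2 at 2.57 and 2.90 and Mt1 at 2.24 and 2.81, and the secreted glutathione peroxidase Gpx3 at 2.79 and 2.36. Atf5, a transcription factor of the Atf4 pathway, the small GTPase gene Gem, Txnip, a glucose-responsive inhibitor of thioredoxin, Sgcz, and Scg2, a granin, completed the 15 with the highest values. In the Atf4 mutant pools, 26 of the 39 were past 1.5 in both as well. After thinning outside Ins1 and Ins2, 28 genes were unequal, 27 of them among the 39.

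**Figure D1:**
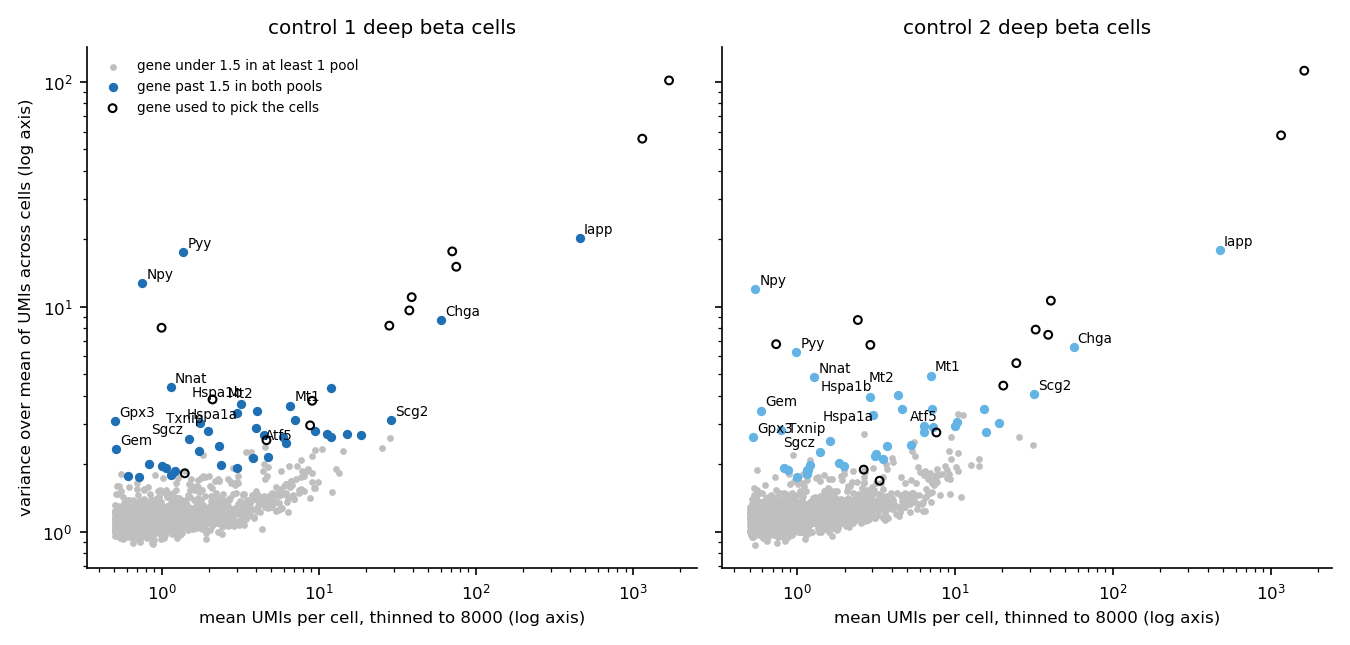
Variance over mean of UMIs across cells (y axis, log) against mean UMIs per cell thinned to 8000 (x axis, log) in deep beta cells of control 1 (left) and control 2 (right); each point is a gene. Filled blue points are the 39 genes past 1.5 in relative variance in both pools, open circles are genes used to pick the cells, and Npy, Pyy, Iapp, Chga and Nnat stand furthest above the grey band.

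Counted over lists of genes, the share of unequal members ran from 0 to above the 2.09% of all genes measured. Of the proposed beta cell subtype genes, 3 of the 9 members over the minimum mean were unequal (Npy, Pyy and Nnat), with a median relative variance of 1.40 over the list, and of the markers of PP cells, the pancreatic polypeptide cells, 1 of 2 (Pyy). Of the beta cell identity and maturity list, 6 of the 33 members over the minimum mean were unequal, led by Iapp, Nnat, Chga and Ero1lb, with a median relative variance of 1.05 over the list. Ero1lb, the beta cell form of the ER oxidase, was the single unequal gene of 28 in the list of ER chaperones and unfolded protein response genes. Atf5 was the single one of 8 Atf4 targets. Fos and Jun were unequal among 11 immediate early genes, a list whose median of 1.39 was among the higher ones. Heat shock proteins had 2 of 12, metallothioneins and antioxidant genes 4 of 16 and secretory granule genes 5 of 26. Glycolysis genes (0 of 11), nuclear respiratory chain genes (0 of 39) and ribosomal protein genes (0 of 77) had none past 1.5 in both pools. The transcription factor Pdx1, at 1.33 and 1.67 UMIs, had relative variances of 0.96 and 1.10, and Ucn3, G6pc2 and Slc2a2 lay between 1.12 and 1.49.

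Npy was an all-or-little gene. It was found in 13.3% of control 1 cells and 9.80% of control 2 cells, where a Poisson spread with the same mean would give 52.9 and 41.9%. Cells with at least 3 Npy UMIs numbered 37 and 28 and held 88.92 and 90.97% of its UMIs. The highest cell had 42 UMIs in control 1 and 30 in control 2. In alpha barcodes thinned alike, Npy was found in 3.45% of 29 cells of control 1 and in 0 of 47 of control 2, which allows a share of cells with a UMI of up to 6.38%. Beside the cells with no Npy UMI, the Npy cells of control 1 had 2.43 against 1.00 Nnat UMIs, and those of control 2 had 1.89 against 1.24. Ppy, a hormone of the same family and a gene of the rule, was at 0.62 against 0.98 UMIs in control 1 and 0.36 against 0.76 in control 2. Over 1.5-fold apart in both pools were 6 of 1865 genes higher in the Npy cells (0.322%) and 7 lower (0.375%), and on the scale without insulin 4 of 1341 higher (0.298%) and 16 lower (1.19%). On that scale Nnat was at 1.64 against 0.83 UMIs and at 1.87 against 0.92.

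Nnat was found in 43.3 and 41.4% of cells, where a Poisson spread would give 68.1 and 72.4%, and in 0 of 29 and 8.51% of 47 alpha barcodes, where 0 of 29 allows a share of cells with a UMI of up to 10.3%. Cells with at least 3 Nnat UMIs numbered 80 and 92, and against cells with none they had 1 of 1865 genes over 1.5-fold higher in both pools (0.0536%) and 0 lower (0.0%), or 0 of 1340 higher (0.0%) and 3 lower (0.224%) on the scale without insulin. Mt1 ranged widely but without a gap: its mean was 6.58 and 7.05 UMIs, 5.56 and 10.0% of cells had none, and the highest cells had 26 and 33. Atf5 averaged 4.00 and 4.59 UMIs and was missing from 15.08 and 11.96% of cells, where a Poisson spread would leave 1.83 and 1.01% without it. Atf4 itself varied less: it averaged 2.77 and 2.81 UMIs with relative variances of 0.87 and 1.13, and 7.14 and 10.98% of cells had none, against 6.25 and 6.01% for a Poisson spread. Pyy, Ppy and Gpx3 are abundant in alpha barcodes (Gpx3 17.93 and 19.04 UMIs in 100% of them, against 0.51 and 0.53 UMIs in beta cells), and the part of free RNA in their spread among beta cells was not tested.

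**Figure D2:**
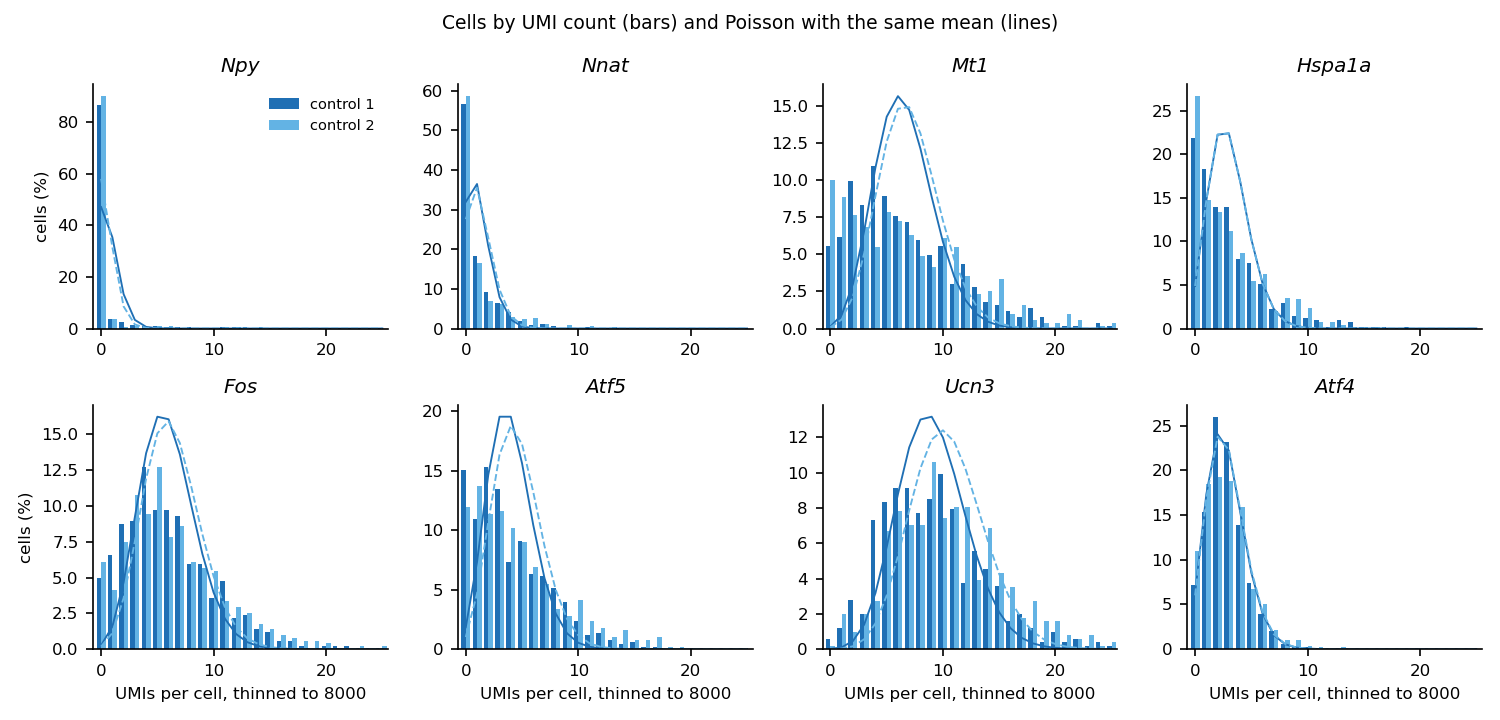
Share of deep beta cells (y axis, percent) by UMI count per cell thinned to 8000 (x axis) for 8 genes in control 1 (dark bars) and control 2 (light bars), with Poisson spreads of the same mean as lines. Npy, Nnat, Hspa1a and Atf5 have more cells at 0 than the lines, while Atf4 is at 0 in 7.14 and 10.98% of cells, against 6.25 and 6.01% for the lines.

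Some unequal genes varied together from cell to cell. Correlations across the cells of a pool are given as Pearson r over 504 and 510 cells, which share a library and a thinned depth. Mt1 and Mt2 had r of 0.62 in control 1 and 0.71 in control 2, and 0.69 and 0.62 in the mutant pools (385 and 447 cells). Hspa1a and Hspa1b had r of 0.41 and 0.28, and Fos with Egr1 0.37 and 0.38. Atf5 correlated with Mt1 (r = 0.33 and 0.42), with the ferritin gene Ftl1 (0.33 and 0.46), with the tetraspanin gene Cd63 (0.36 and 0.47) and with Asns, the asparagine synthetase (0.30 and 0.26). Fos correlated positively with Txnip (0.34 and 0.30) and negatively with Atf5 (-0.14 and -0.21). Atf4 and Atf5 RNA had r of 0.049 in Atf4 mutant 1, 0.54 in Atf4 mutant 2, and 0.097 and 0.13 in the controls. On the scale without insulin the control values of these pairs kept their sign, with r of 0.54 and 0.635 for Mt1 with Mt2, 0.245 and 0.40 for Atf5 with Mt1, and -0.225 and -0.233 for Fos with Atf5, while Atf4 with Atf5 was at -0.057 in Atf4 mutant 1. Atf4 mutant 2 is the pool in which a share of cells kept Atf4 RNA, found in 43.6% of its deep beta cells.

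Summed over a list, levels per cell spread several-fold. The Atf4 targets summed to a median of 17 UMIs in control 1 (5th to 95th percentile 7.15 to 32) and 19 in control 2 (8 to 38). Immediate early genes had medians of 22 and 27 UMIs (7 to 41, and 7 to 53.6). The variance over mean of these sums was 3.34 and 4.23 for Atf4 targets, 4.68 and 5.94 for immediate early genes, 5.67 and 7.44 for ER genes, and 2.76 and 2.93 for heat shock proteins. It was 16.4 and 14.1 for the maturity list, of which Iapp alone made up 70% of the UMIs. On the scale without insulin it was 2.34 and 2.93 for Atf4 targets, 3.97 and 4.85 for immediate early genes, 4.54 and 5.89 for ER genes, 2.07 and 2.32 for heat shock proteins, and 11.04 and 10.57 for the maturity list.

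Summed levels of some lists varied together from cell to cell, and for ribosomal protein genes this depended on the scale. The ER and the secretory granule lists correlated positively at 8000 UMIs (r = 0.40 in control 1 and 0.44 in control 2) and on the scale without insulin (0.32 and 0.34, 499 and 507 cells). Ribosomal protein genes had r of -0.0091 and -0.077 with the ER list at 8000 UMIs, and -0.38 and -0.42 on the scale without insulin. With the granule list their sign turned: r was 0.13 and 0.16 at 8000 UMIs and -0.43 and -0.41 without insulin. They ran with the Atf4 targets (0.48 and 0.53 at 8000 UMIs, 0.31 and 0.39 without insulin) and with metallothionein and antioxidant genes (0.48 and 0.64, and 0.24 and 0.49). Immediate early genes ran with heat shock proteins (0.34 and 0.26, and 0.28 and 0.22). On the scale without insulin, the summed mitochondrially encoded genes, a measure that the rule capped, had r of -0.30 and -0.34 with the ER list and -0.47 and -0.36 with the granule list. Their part in the other correlations was not tested.

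**Figure D3:**
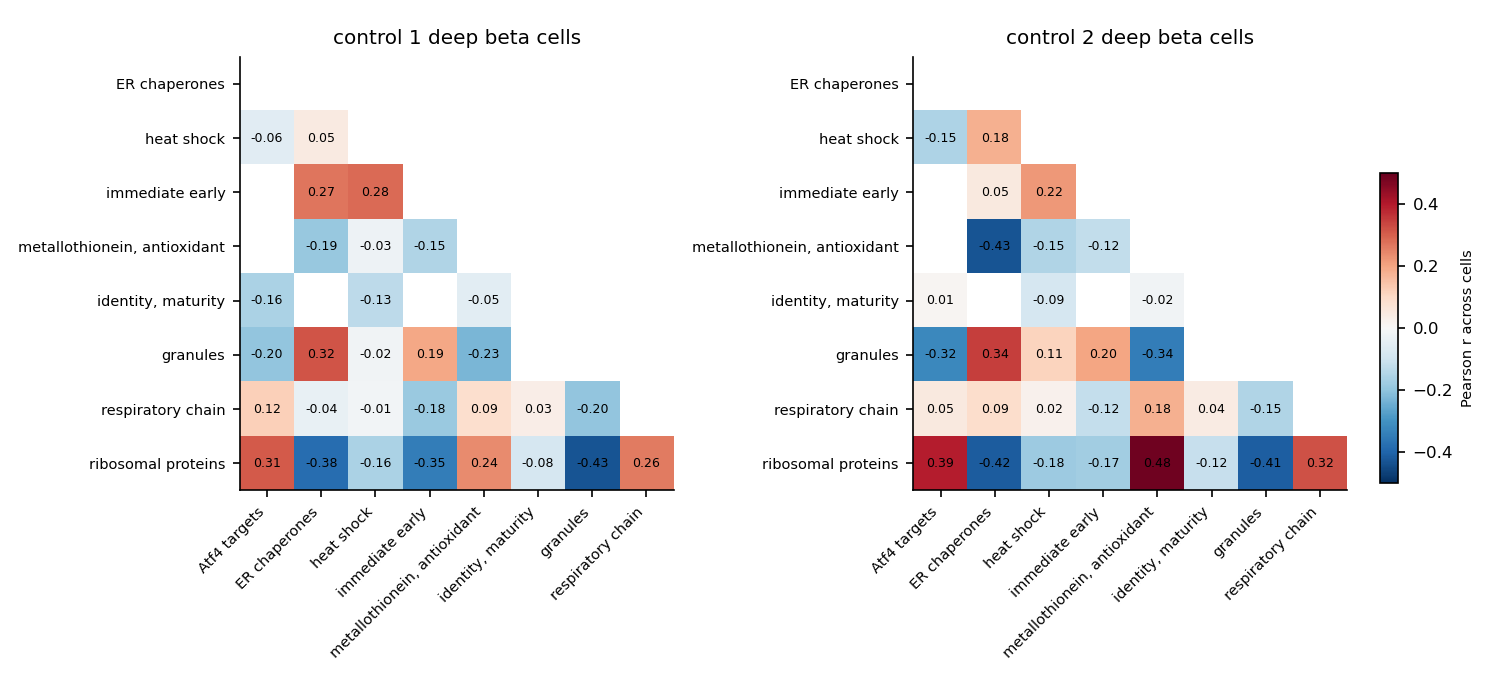
Pearson r across deep beta cells between the summed levels of 9 gene lists (rows and columns), after thinning to 4000 UMIs outside Ins1 and Ins2, for control 1 (left, 499 cells) and control 2 (right, 507 cells); red is positive, blue negative, and pairs of lists that share genes are blank. ER chaperone and granule lists are red with each other and blue with ribosomal protein genes in both pools on this scale, while at 8000 UMIs the granule and ribosomal lists had r of 0.13 and 0.16.

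Cells at or above the 80th percentile of a list's sum were compared with cells at or below its 20th percentile, over genes outside the list, and a gene is counted where it differed over 1.5-fold the same way in both control pools. Since the cells were chosen by the sums, these are descriptions without a test. High against low Atf4-target cells had 6 of 1334 genes higher (0.45%) and 7 lower (0.525%) on the scale without insulin. The higher ones included Eprs, the glutamyl-prolyl-tRNA synthetase, at 0.97 against 0.58 UMIs in control 1 and 1.04 against 0.46 in control 2, and the glutamate receptor gene Grik3 at 2.72 against 1.63 and 2.98 against 1.75. Txnip was at 1.13 UMIs in high cells and 2.16 in low cells of control 1, and at 0.82 and 1.78 in control 2. Nnat was at 0.57 in high and 1.21 in low cells of control 1, and at 0.69 and 1.11 in control 2.

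Thinned with insulin included, the high Atf4-target cells had 48 of 1858 genes higher (2.58%) and 6 lower (0.323%). Their median depth was 17711 UMIs against 11634 in low cells of control 1 and 17834 against 13420 in control 2, and their median insulin share was 30.3 against 39.7% and 30.3 against 40.3%. On that scale Mt1 was at 8.66 against 4.28 UMIs and 9.64 against 4.09. Npy was at 0.34 against 1.41 and 0.17 against 0.86, and Gpx3 at 0.31 against 0.99 and 0.19 against 0.77.

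Along the ER list the difference was wide. High against low ER cells had 98 of 1838 genes higher (5.33%) and 0 lower (0.0%) with insulin included, where median depth was 21207 against 10195 UMIs in control 1 and 22673 against 12349.5 in control 2. High ER cells had 57 of 1316 genes higher (4.33%) and 18 lower (1.37%) on the scale without insulin. The higher genes included secretory pathway genes outside the list: the proinsulin convertase Pcsk1 at 1.34 against 0.54 UMIs in control 1 and 1.66 against 0.57 in control 2, the translocon subunit gene Ssr3 at 1.75 against 0.76 and 1.59 against 0.73, the ER protein gene Erp44 at 0.84 against 0.39 and 0.96 against 0.46, and the cargo receptor gene Tmed9 at 2.28 against 1.07 and 2.41 against 1.16. On this scale Mt1 was lower, at 3.26 against 5.80 UMIs and 2.19 against 7.31. Gad1, which makes GABA, was at 0.61 against 1.08 and 0.52 against 1.16, and Glul, the glutamine synthetase, at 1.66 against 2.72 and 1.40 against 2.66. The mitochondrial share had medians of 2.51 against 4.10% and 1.58 against 2.64%, high against low.

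High against low immediate early cells had 31 of 1855 genes higher (1.67%) and 2 lower (0.108%) with insulin included, and 17 of 1331 higher (1.28%) and 8 lower (0.601%) on the scale without it. Txnip led at 2.86 against 0.72 UMIs in control 1 and 2.00 against 0.53 in control 2. The heat shock co-chaperone gene Dnajb1 was at 2.14 against 0.91 and 2.06 against 0.79, Hspa1a at 3.35 against 1.87 and 2.59 against 1.22, Nnat at 1.30 against 0.57 and 1.50 against 0.65, and Lpl, the lipoprotein lipase, at 1.98 against 1.03 and 1.23 against 0.63. On the lower side stood Atf5 at 2.42 against 4.10 and 2.11 against 4.97, Asns at 0.45 against 0.76 and 0.41 against 0.81, and Ftl1 at 5.53 against 9.03 and 6.19 against 10.2. Txnip was thus high in immediate early cells and low in Atf4-target cells of both pools.

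The maturity list gave 16 of 1833 genes higher (0.873%) and 4 lower (0.218%) with insulin included, and 0 of 1309 genes higher (0.0%) and 4 lower (0.306%) on the scale without it. Iapp dominated its sum. Among the genes named lowest in its high cells, Junb was at 0.88 against 1.44 UMIs in control 1 and 1.43 against 2.12 in control 2, and Egr1 at 1.49 against 2.19 and 1.56 against 2.66. Without Iapp, a sum chosen after its dominance was seen, 113 of 1834 genes were higher (6.16%) and 1 lower (0.0545%) with insulin included, and 23 of 1310 higher (1.76%) and 18 lower (1.37%) on the scale without it. Txnip was at 2.34 against 0.91 and 1.75 against 0.80, and Tm4sf4, a tetraspanin-like gene, at 2.41 against 1.24 and 2.71 against 1.33. Mt1 was at 3.11 against 7.14 UMIs and 2.28 against 7.47, Atf5 at 1.95 against 4.13 and 1.92 against 5.55, and Asns at 0.35 against 0.70 and 0.40 against 0.87. On the scale without insulin, cells high in identity genes other than Iapp were thus low in Mt1 and Atf5. High ER cells were low in Mt1 too, but the 2 sums are not independent. Both lists hold Ero1lb, which made up 13.7 and 15.5% of the ER sum on that scale. With insulin included, 1 gene passed as lower along the maturity sum without Iapp and 0 along the ER list, so these falls did not all pass there. The mitochondrial share had medians of 2.36 against 4.09% and 1.56 against 2.71%, high against low, and its part was not tested.

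Each control pool held both sexes, so part of the spread could be read by sex. A cell with at least 2 Xist UMIs and 0 Y-linked UMIs was called female, and one with at least 2 Y-linked and 0 Xist UMIs male. This gave 58 female and 129 male cells in control 1, and 42 female and 128 male cells in control 2, the remaining cells being uncalled. The comparison asks which genes differed within a pool between cells of female and male mice. With few mice a sex in each pool, sex and individual mouse cannot be told apart. Summed UMIs were fitted with edgeR's quasi-likelihood test with the pool as a block, and p-values were Benjamini-Hochberg adjusted over 9960 genes, with Xist and the 4 Y-linked genes left out.

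At an adjusted p under 0.05, 78 genes differed (0.783%), of which 33 were higher in female cells (0.331%) and 45 lower (0.452%), and 893 genes had an unadjusted p under 0.05. These counts and shares include genes that picked the cells: 8 mitochondrially encoded genes among the higher and Ins1 among the lower. Scaled by library totals alone, 66 were higher and 54 lower. The calls depended on the tool: DESeq2 called 1 gene, Scg5, and edgeR without the block called 2. Scg5, which encodes the convertase chaperone 7B2, lay at 892 and 917 TMM-scaled CPM (UMIs per 1e6) in female cells of control 1 and 2, against 1839 and 1918 in male cells. Its log2 difference was -1.05 (SE 0.085), with an edgeR adjusted p of 8.76e-10 and a DESeq2 adjusted p of 2.01e-07 after Benjamini-Hochberg adjustment. Female values of both pools lay below both male values. In the mutant pools, by unscaled CPM, Scg5 was at 1185 in female and 943 in male cells of Atf4 mutant 1, and at 784 in female and 862 in male cells of Atf4 mutant 2, so female cells were higher in 1 mutant pool and lower in the other. In Atf4 mutant 2, Atf4 itself was at 3.12 CPM in female and 197.6 CPM in male cells. The sexes of that pool thus also differed in Atf4 RNA. Whether the Scg5 difference changed with the genotype was not tested.

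Nnat lay at 183 and 299 CPM in female cells and 89.7 and 63.5 CPM in male cells (log2 difference 1.64, SE 0.17, edgeR adjusted p = 2.93e-07). Npy lay at 131 and 108 CPM in female cells and 71.1 and 39.4 CPM in male cells (1.13, SE 0.17, edgeR adjusted p = 8.89e-05). Both genes were thus higher in female cells of both pools without overlap, yet DESeq2 gave them adjusted p-values of 1.0 and 0.563. Npy was found in 24.14 and 19.05% of female cells, against 6.98 and 3.91% of male cells, and Nnat in 56.9 and 71.4%, against 35.7 and 24.2%. The variance over mean of Npy was 5.48 and 11.6 in female cells, 13.3 and 9.60 in male cells, and 12.7 and 11.9 over all cells of control 1 and 2. That of Nnat was 9.63 and 3.09 in female cells, 1.77 and 4.26 in male cells, and 4.39 and 4.86 over all cells.

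Other genes higher in female cells by edgeR included St8sia1, a ganglioside sialyltransferase reported as a marker of a beta cell subset, at 24.7 and 136 CPM in female and 11.4 and 29.1 CPM in male cells. Gatm, an enzyme of creatine synthesis, was at 74.2 and 57.7 CPM against 14.6 and 22.6. On the lower side, Edem2, a factor of ER-associated degradation, was at 54.0 and 66.0 CPM in female cells against 109.8 and 131.9 in male cells, and Pdyn, the prodynorphin gene, at 24.7 and 40.1 against 39.6 and 108.2. Of the ER list, 5 of 36 tested members were lower in female cells by edgeR (Dnajb9, Edem2, Manf, Sdf2l1 and Fkbp11) and 0 were higher. Their list had a median log2 difference of -0.27, against -0.0025 over all genes, and 35 of 36 values were negative. Dnajb9, an ER co-chaperone, was at 220 and 169 CPM in female and 334 and 353 CPM in male cells. By DESeq2 0 of the 36 passed. The mitochondrial share, which the rule used, had medians of 3.99 and 2.47% in female cells against 2.54 and 1.74% in male cells. Its part in the ER values was not tested.

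Of the 39 unequal genes, 6 were called by edgeR between the sexes: Npy, Nnat and the tight junction gene Tjp1 higher, and Txnip, Scg5 and the respiratory chain gene Cox6a2 lower in female cells. Across cells Tjp1 varied with the mitochondrially encoded mt-Nd6 (r of 0.538 in control 1 and 0.498 in control 2, without insulin). The part of the mitochondrial share, which was higher in female cells, in the Tjp1 call was not tested. Cox6a2 lay at 93.4 and 181.5 CPM in female cells against 151.7 and 339.6 in male cells (log2 difference -0.81, SE 0.13, edgeR adjusted p = 2.86e-04). Mt1, Atf5 and Fos did not pass. Mt1 was at 795 and 1056 CPM in female cells against 1082 and 756.5 in male cells, so the direction differed between pools. The genes of the rule were not left out of this fit. Of the 33 higher genes, 8 were mitochondrially encoded, and the rule capped these. Ins1, which also picked the cells, was among the 45 lower ones. Of 9 tested X-linked genes that escape inactivation, 0 were called, 6 were positive and 3 negative, with a median log2 difference of 0.384. On chromosome X 3 of 320 genes tested were called (0.938%). Among placed nuclear chromosomes the share called was highest on chromosome 15, with 6 of 380 genes tested (1.58%), and chromosome 2, with 12 of 781 (1.54%), of which 8 were lower in female cells. Scg5 (2:113776362-113829121, minus strand) and Nnat (2:157560078-157562522, plus strand) are among the 12 on chromosome 2 (GENCODE vM21 positions, mm10).

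**Figure D4:**
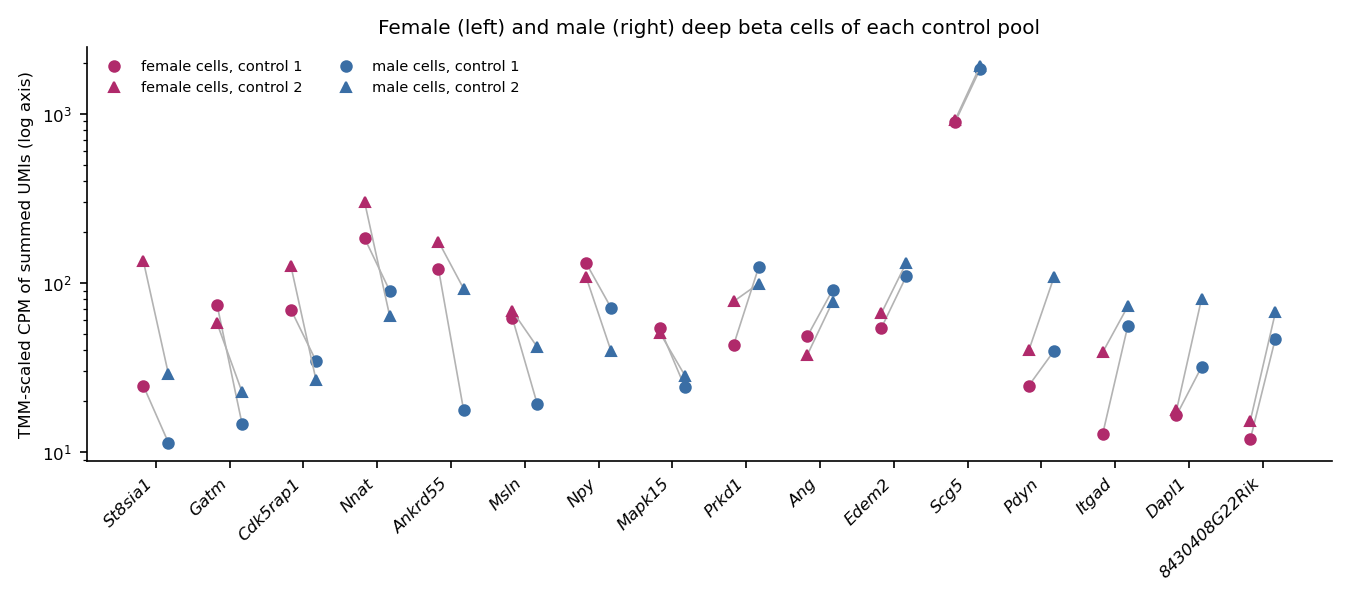
TMM-scaled CPM of summed UMIs (y axis, log) in female cells (left point, magenta) and male cells (right point, blue) of control 1 (circles) and control 2 (triangles) for the 16 named genes, joined within a pool. Scg5 falls at 892 and 917 CPM in female cells and 1839 and 1918 CPM in male cells, and the rule that named the 16 genes asked for the same slope in both pools.

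Barcodes picked by the same rule in Atf4 mutant islets were compared with the control cells. The comparison asks how deep beta cells differ between mutant and control islets. The rule did not select for loss of Atf4, so cells with and without Atf4 RNA were summed together. After thinning, Atf4 RNA was missing from 99.22% of Atf4 mutant 1 cells and 56.38% of Atf4 mutant 2 cells. In control 1 and 2 it was missing from 7.14 and 10.98%. Differences limited to cells that carry the deletion were not tested. Atf4 was at 1.74 and 116.9 CPM in Atf4 mutant 1 and 2, against 382.5 and 390.0 CPM in control 1 and 2 (log2 difference -2.70, SE 1.06, edgeR adjusted p = 0.325). Both mutants lay below both controls, and the pools of the mutant group differed widely. The edgeR test over 13000 genes called 42 (0.323%): 31 higher in mutants (0.238%) and 11 lower (0.0846%), with 1760 at an unadjusted p under 0.05. DESeq2 called 115 higher and 83 lower.

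Of the 39 unequal genes, 5 were called by edgeR, 4 of them lower in mutant cells. Nnat lay at 23.9 and 34.5 CPM in mutants against 153.6 and 160.4 in controls (log2 difference -2.43, SE 0.18, adjusted p = 0.0017 by edgeR). Npy lay at 8.96 and 22.0 CPM in mutants against 118.0 and 73.2 in controls (-2.62, SE 0.37, adjusted p = 0.0363 by edgeR). Without Atf4 mutant 1 the Npy call was lost (adjusted p = 0.0676 by edgeR, log2 difference -2.12). Cells with at least 3 Npy UMIs numbered 3 and 8 in the mutant pools, against 37 and 28 in the controls.

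Gpx3 lay at 31.4 and 30.6 CPM in mutants against 63.7 and 73.7 in controls (-1.15, SE 0.13, edgeR adjusted p = 0.0154). Mt2 lay at 288 and 335 CPM in mutants against 551 and 561 in controls (-0.83, SE 0.12, edgeR adjusted p = 0.046). Both calls were lost without Atf4 mutant 1 (adjusted p = 0.0782 and 0.155 by edgeR). Spc25, a kinetochore gene, was the single unequal gene called higher, at 285.5 and 265.9 CPM in mutants against 161.2 and 152.6 in controls. Atf5 was at 36.5 and 256 CPM in mutants against 559 and 613 in controls and did not pass (edgeR adjusted p = 0.253), nor did Mt1 at 564 and 590 against 903 and 911 (0.0624).

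Of the targets of p53, a transcription factor of the DNA damage response, 5 of 19 tested were called higher by edgeR (Phlda3, Cdkn1a, Ccng1, Zmat3 and Eda2r) and 0 lower, with 17 of 19 positive and a median log2 difference of 1.19. Cdkn1a, the cell cycle inhibitor p21, lay at 532.7 and 319.5 CPM in mutants against 18.8 and 31.4 in controls (log2 difference 4.08, SE 0.31, edgeR adjusted p = 0.0017). Both mutants lay above both controls. Of the Atf4 targets, 0 of 35 tested were called by edgeR in either direction, although 31 were lower in mutants, with a median log2 difference of -0.46 against 0.0073 over all genes. Of the maturity list 1 of 38 was called, Nnat, and of the immediate early genes and ER genes 0 of 35 and 0 of 37. Ucn3 was at 923 and 1108 CPM in mutants and 1267 and 1390 in controls (edgeR adjusted p = 0.244). Of 17 acinar cell genes tested, 5 were called lower in mutants, among them Amy2a5 at 14.04 and 15.56 CPM against 53.2 and 53.8, and 17 of 17 were lower in sign. The 5 called genes (Amy2a5, Ctrb1, Cela3b, Try4 and Prss2) encode digestive enzymes of acinar cells. Summed over its 21 members, the acinar list made up 58.1 and 67.9 CPM of the mutant cells' UMIs against 175.4 and 282.8 CPM of the control cells'. The part of acinar RNA in the other differences was not tested.

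**Figure D5:**
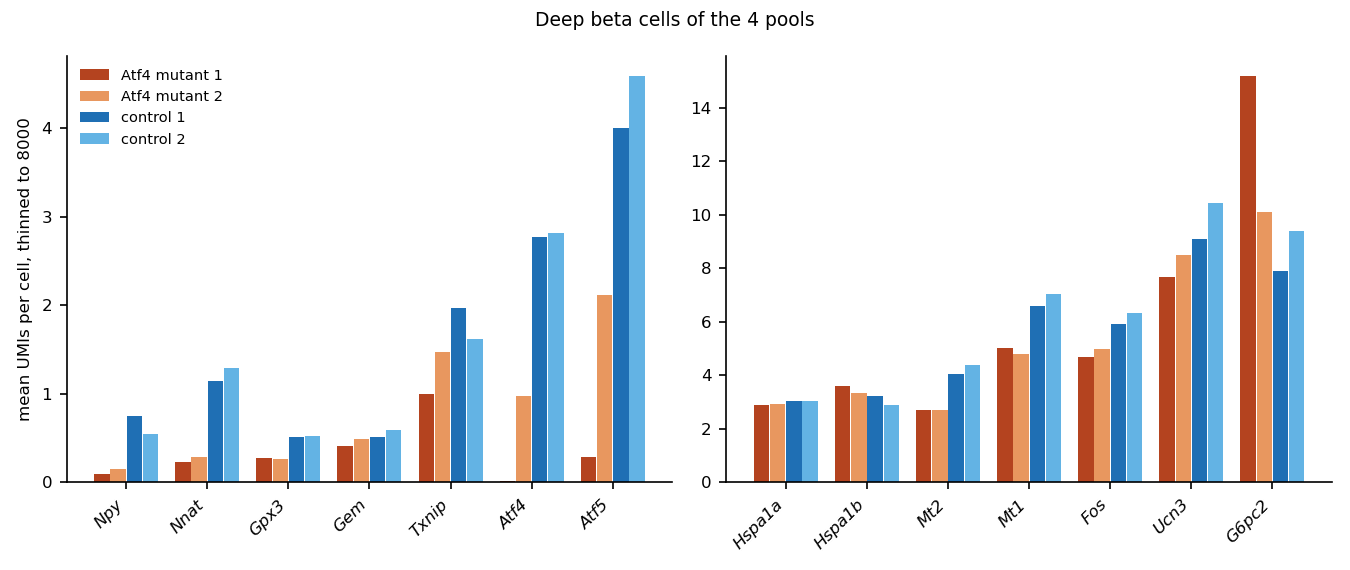
Mean UMIs per deep beta cell thinned to 8000 (y axis) for 14 genes in Atf4 mutant 1 and 2 (red and orange bars) and control 1 and 2 (dark and light blue bars). Npy, Nnat, Gpx3, Mt2 and Mt1 are lower in both mutants than in both controls, and Atf4 and Atf5 are lower with a wide gap between the mutant pools.

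Deep beta cells were last set against the alpha barcodes of the same 2 pools, which asks what sets them apart from another islet cell type. Alpha barcodes were those with at least 2000 UMIs, Gcg of at least 5% and insulin under 10% of UMIs, 161 in control 1 and 156 in control 2, so they are shallower by rule. The edgeR fit with the pool as a block called 4137 of 12243 genes (33.8%): 2135 higher in beta cells (17.4%) and 2002 lower (16.4%). Scaled by library totals alone, 1307 were higher and 3386 lower, with the median of all genes at -0.27 on the log2 scale. Both sets were chosen by hormone RNA, so Ucn3 only checks the choice: it was at 1341 and 1478 CPM in beta cells against 13.7 and 14.9 in alpha barcodes.

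The ER and Atf4-target lists both leaned to beta cells, while the heat shock list did not shift. Of 19 heat shock genes tested, 5 were higher in beta cells and 3 lower by edgeR, with a median log2 difference of -0.0001. Of the ER list 32 of 36 genes were higher in beta cells and 1 lower by edgeR, with a median log2 difference of 1.13 against -0.0064 over all genes. Manf, an ER stress-inducible secreted factor, was at 714.7 and 786.8 CPM in beta cells against 319.8 and 338.5 in alpha barcodes. Of the Atf4 targets 19 of 34 were higher and 3 lower (median 0.75). Atf5 was at 592 and 652 CPM in beta cells against 23.5 and 44.0 in alpha barcodes (log2 difference 4.18, SE 0.13, edgeR adjusted p = 5.97e-57). Asns was at 105.7 and 113.1 CPM against 29.4 and 24.1, while Atf4 itself was at 405 and 415 CPM against 377 and 289.5.

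Immediate early genes ran the other way, with 26 of 35 lower in beta cells and 2 higher by edgeR (median -0.92). Fos was at 888 and 886 CPM in beta cells against 1982 and 2034 in alpha barcodes, and Egr1 at 317 and 374 against 723 and 709. Ribosomal protein genes were lower in beta cells in 77 of 81 cases (median -0.78), and cholesterol and fatty acid synthesis genes were higher in 20 of 25 and lower in 1 (median 1.21). Mt1 was at 956 and 968 CPM in beta cells against 213.8 and 238.1 in alpha barcodes. The medians of these lists kept their sign when scaled by library totals alone, at 0.86 for the ER list, 0.49 for Atf4 targets, -1.18 for immediate early genes, -1.04 for ribosomal protein genes and 0.95 for cholesterol and fatty acid synthesis.

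RNA of other cell types differed between these beta and alpha sums. Of the macrophage and lymphocyte markers 7 of 7 tested were higher in beta cells by edgeR, with a fitted median log2 difference of 4.63. Among them C1qb and Cd74 had 0 UMIs in both alpha sums, and Cd79a, H2-Aa and H2-Ab1 in that of control 2. A gene at 0 in both alpha sums could pass the low-count filter only through the beta sums. The count and the median are thus no test of this list. Summed over its 18 members, the macrophage and lymphocyte list made up 206.5 and 195.3 CPM in beta cells against 102.8 and 117.4 CPM in alpha barcodes. Members at 0 numbered 3 and 4 in beta cells and 12 and 14 in alpha barcodes. The beta sums held 8194895 and 9145059 UMIs against 953130 and 1081991 in the alpha sums, so these zeros were counted at unlike depth. Of the endothelial markers 4 of 8 tested were higher and 0 lower, at a summed 35.0 and 145.4 CPM in beta cells against 60.9 and 49.0 in alpha barcodes. Of the acinar genes 4 of 18 were lower and 0 higher, at 175.4 and 282.8 against 356.7 and 406.7 CPM. Their part in the differences between beta cells and alpha barcodes was not tested.

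Among single deep beta cells, high counts of such RNA were rare, while low counts of some lists were common. Thinned to 8000 UMIs, acinar marker RNA was found in 67.5 and 78.2% of cells. Macrophage and lymphocyte marker RNA was found in 65.3 and 60.2%, and C1qa made up 61.3 and 63.3% of it. Endothelial marker RNA was found in 21.4 and 22.2%. Before thinning, at least 10 UMIs of macrophage and lymphocyte markers were found in 15 and 24 cells, which held 31.2 and 31.2% of those UMIs. At least 10 of acinar markers were found in 15 and 51 cells, which held 13.8 and 36.9%. Endothelial markers reached that level in 0 and 11 cells, mesenchymal markers in 0 and 5, and erythroid markers in 0 and 0. Without the cells that carried at least 10 UMIs of macrophage and lymphocyte, endothelial, mesenchymal or erythroid markers, 39 genes were unequal, 35 of them among the 39 of all cells. Without the acinar ones as well, 35 were, 29 of them among the 39.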

How the data were processed

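The 4 matrices hold whole-number UMI counts per gene symbol and barcode, as the authors deposited them. Per the submitters' processing notes mm10 was the genome build and Seurat, without a version, a tool; aligner and counter are not given in the sources used here. The control matrices hold 16729747 and 17655893 UMIs, of which 8194895 and 9145059 lie in deep beta cells. A UMI length of 6 bases, read from Ins2 counts that reach 4078 in both control pools and 4089 and 4074 in the mutants, would allow 4096 molecules per gene and cell, so abundant RNA can be undercounted. Doublets were not called, beyond the limits on other hormones.

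Cells were thinned at random to 8000 UMIs (seed 1), and each gene's variance over mean was divided by the median of the 50 genes on either side by mean. At the ends of the range this window was shifted inward, so the most abundant genes shared 1 window. Sums per pool went into edgeR 4.0.16 under R 4.3.3 with limma 3.58.1: filterByExpr, TMM, quasi-likelihood F tests and Benjamini-Hochberg adjustment over all genes tested, at 0.05. CPM are TMM-scaled unless stated. DESeq2 1.42.0 was the other tool. Scripts ran in Python 3.11.15 (numpy 2.4.6, scipy 1.17.1, pandas 2.3.3, matplotlib 3.10.9) and were tested on simulated data. Replicate pools of a group differed by more than counting error (chi-square per degree of freedom 8.12 in mutants and 9.60 in controls).

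The members, the 29 gene lists and the tests were chosen with earlier results of these data known. Named genes were the label's markers, the 15 most unequal genes, up to 4 per list by relative variance, up to 8 each way along a list, up to 8 each way per fit among calls averaging at least 5 in log2 CPM and with groups that do not overlap (in block fits, the same sign in both pools), the genes most alike across cells, and Atf4. Some genes were also named in places where this rule did not choose them, after their values were seen. Among these are Dnajb9, Manf, Cox6a2, Spc25, Asns, Egr1, Phlda3, Eda2r, Cd74, C1qb, Pdx1, Sdf2l1, Fkbp11, Cst3, Slc28a2 and Slc30a4. Same-numbered pools of the groups share only a number: the correlation of their deviations was -0.0907 over 13017 genes. Alternatives changed the rule, the scale, the tool, the filter, the block or the pools used.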

Additional observations from a re-analysis of the deposited data

Results flagged for a closer look

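For 3 of the 16 genes named between female and male cells, both control pools moved one way and both mutant pools the other, on the log2 female minus male scale of unscaled CPM. Gatm was at -0.738 and -0.0828 in Atf4 mutant 1 and 2, against 2.37 and 1.39 in control 1 and 2. Ankrd55 was at -0.431 and -0.544 in the mutants, against 2.79 and 0.956 in the controls. Ang was at 0.00112 and 0.0765 in the mutants, against -0.853 and -0.985 in the controls. The values of Ang in both mutants and of Gatm in Atf4 mutant 2 are close to 0. Over the 16 genes, 9 had the sign of the controls in each mutant pool. Female and male cells of Atf4 mutant 2 also differed in Atf4 RNA, at 3.12 and 197.6 CPM, so its values compare more than sex. The difference between the groups was not tested, each value rests on few mice, and the control pools had chosen these genes.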

How the results depend on the processing

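Of the counts of genes and cells, 137 stayed within 1.5 times their main value and 59 moved. Of the other values, 598 kept direction and call, 45 moved, 42 lost their call and 2 reversed; the cause was not tested. The 2 that reversed were the correlations of the granule list with ribosomal protein genes, at -0.431 in control 1 and -0.411 in control 2 without insulin, against 0.128 and 0.158 at 8000 UMIs. That comparison and the sets without other cells' RNA were added after seeing the data.

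Between mutant and control cells the 31 higher and 11 lower genes became 115 and 83 by DESeq2, 98 and 22 by library totals, 63 and 27 without a low-count filter, 57 and 23 over 12000 UMIs, and, added after seeing the data, 68 and 30 without cells with RNA of both sexes. With insulin of at least 25%, 17 were lower. With 1 pool left out, higher genes ranged from 15 to 300 and lower ones from 6 to 186. Same-numbered pools do not pair: with the replicate block, 64 were higher and 40 lower, with all 42 calls kept, and with numbers crossed by library name 98 and 58.

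Between female and male cells the 33 higher and 45 lower genes became 0 and 1 by DESeq2, 60 and 74 without insulin in the sums, 51 and 101 with sex from 1 UMI, 19 and 15 with insulin of at least 25%, and 52 and 70 with other hormones under 0.2%. Library totals gave 66 higher, and no filter gave 78 lower. With no replicate block, 1 was higher and 1 lower.

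Between beta cells and alpha barcodes, DESeq2 gave 875 higher and 847 lower, library totals 1307 and 3386, and alpha barcodes over 8000 UMIs 1319 lower.

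Along the lists, the main scale gave 48 genes higher for Atf4 targets, 98 for ER genes, 16 for maturity and 31 for immediate early genes. Without insulin these were 6, 57, 0 and 17, with 18 lower for ER genes and 8 for immediate early genes. With 90th and 10th percentiles they were 110, 165, 60 and 61, with 4 and 12 lower. Leaving Iapp out gave maturity 113 higher and 1 lower.

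Over 12000 UMIs control 1 had 294 cells and a maturity variance over mean of 9.87. The metallothionein variance over mean of control 2 was 3.25 without insulin.

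The female sums rest on 58 and 42 cells and the sums of alpha barcodes over 8000 UMIs, with Gcg of at least 10%, on 26 and 46. Thinning to 8000 UMIs hides genes under 0.5 UMI a cell, and UMI saturation affects Ins1, Ins2 and the shares set by them.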

Other observations

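C1qa, a complement gene known from macrophages, was among the 39 unequal genes, and it was found in 55.2 and 52.0% of deep beta cells of control 1 and 2 at 1.00 and 0.99 UMIs per thinned cell. Its partner genes were nearly absent: C1qb was found in 0.60 and 1.18% of the same cells, at 0.028 and 0.029 UMIs. In summed counts C1qa lay at 147.6 and 140.6 CPM in beta cells against 86.3 and 99.5 CPM in alpha barcodes. These values were singled out after they were seen, and their source was not tested.

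The 12 genes of chromosome 2 called between female and male cells by edgeR lay from Dapl1 (start 59484653) to Ube2c (start 164769898) in GENCODE vM21. Slc28a2, Gatm and Slc30a4 start within one stretch (122426477, 122594467 and 122681233), yet their log2 differences were 5.23, 1.83 and -1.90 (edgeR adjusted p = 1.96e-04, 1.33e-05 and 0.00132, Benjamini-Hochberg). Slc28a2 had 0 CPM in male cells of control 1, so its fitted difference is no bound. Cst3, a cystatin, was at 288 and 276 CPM in female cells against 481 and 474 CPM in male cells, with no overlap.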
